A study of Caenorhabditis elegans with 4 samples.

Results

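The infection response genes (irg) of the nematode Caenorhabditis elegans were followed in wild-type adults. They are the genes irg-1 to irg-7, taken by the single gene symbol that the probe annotation gives, and all 7 have a probe, 1 each, of 14943 genes with a probe of their own. Adult RNA came from 4 preparations (preps), all labelled wt, each hybridised on its own two-colour array together with wt mixed reference RNA (4 arrays). The labels give no age, treatment or food, and the make-up of the reference is not stated. Each value is a log2 ratio of the adult channel over the reference channel; the labels put adult RNA in channel 2 of every array, so this direction is likely, but the numerator is not stated. No array had its channels swapped, so an adult difference and a channel effect of a gene cannot be told apart. The genes were taken up with these ratios known, irg-5 having the largest positive mean of all genes, so their ratios are given as a description, without p-values.

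The irg genes were named for their induction when the worm feeds on the bacterial pathogen Pseudomonas aeruginosa, which colonises its intestine. Part of the response runs through a conserved p38 kinase cascade, in which the adaptor TIR-1 acts through the kinases NSY-1, SEK-1 and PMK-1 on the transcription factor ATF-7. Another part runs through the bZIP transcription factor ZIP-2, which responds to blocked translation among other things. The genes irg-4, irg-5 and irg-6 are outputs of the p38 cascade and encode proteins with a CUB-like domain. The genes irg-1 and irg-2 depend on zip-2, and irg-7 acts upstream of the cascade.

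The members did not share one direction. The genes irg-4 and irg-5 lay far above the reference, irg-1 and irg-2 below it, irg-6 and irg-7 had both signs, and irg-3 was below it on 3 preps and above it on prep 2. Of the 7 genes, 4 had one sign on all 4 arrays, beside 58.1% of the 14639 genes with 4 values. A fit with limma over 14935 genes (two-sided against 0, Benjamini-Hochberg adjusted p under 0.05) called 2 members positive and 2 negative, beside 23.2% of all genes called positive and 21.2% called negative (44.5% in all). Nothing is read from these counts of members, since the ratios were known when the genes were taken up.

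**Figure D1:**
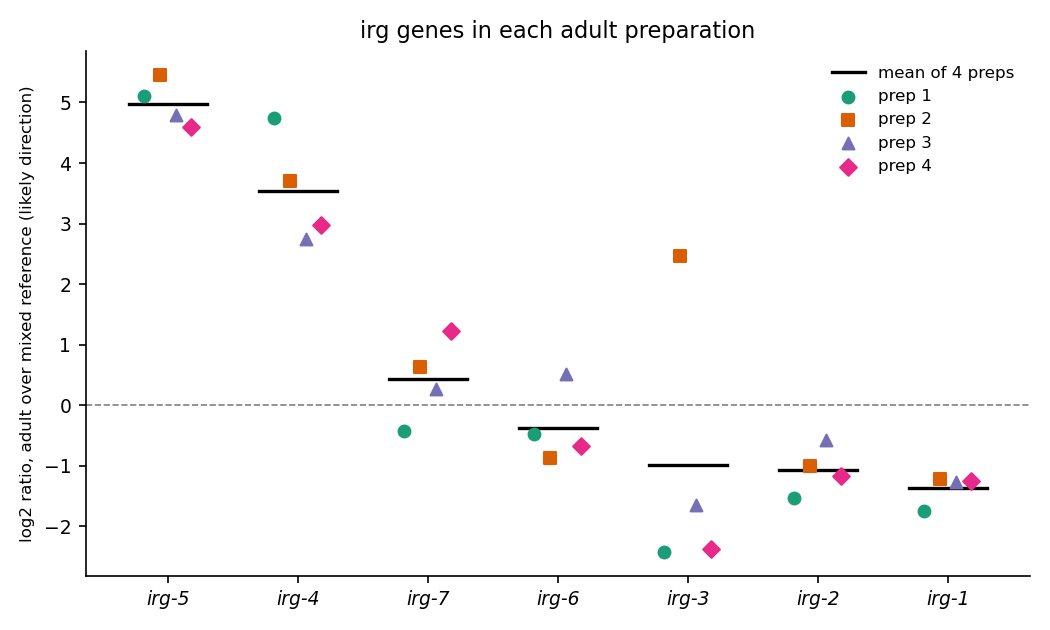
Log2 ratio of adult over mixed reference (vertical axis, likely direction) for each irg gene on each of the 4 preps; the bar is the mean and the dashed line marks no difference. The points of irg-5 and irg-4 lie at 2.74 or above, those of irg-1 and irg-2 lie at -0.57 or below, and irg-3 has 1 point at 2.47 and 3 at -1.64 or below.

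The p38 output irg-5 had log2 ratios of 5.10, 5.46, 4.79 and 4.59 on preps 1 to 4, a mean of 4.98 ± 0.38 (SD, n = 4). These correspond to 34.3, 44.0, 27.7 and 24.1 times the reference. Every prep was high, and 65.2% of all genes had a smaller SD. Among the genes measured on the same array, irg-5 ranked eighth from the top on prep 1, second on prep 2, and first on preps 3 and 4.

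The related gene irg-4 had log2 ratios of 4.74, 3.70, 2.74 and 2.98 on preps 1 to 4, with a mean of 3.54 ± 0.90 (SD, n = 4), or 11.6-fold. It was above the reference on every prep, and its mean was matched or exceeded by 8 genes, itself included. Its ratio differed between preps more than that of irg-5, and 97.5% of all genes had a smaller SD. Prep 1 was the highest and prep 3 the lowest, with 26.7 and 6.67 times the reference. Both irg-4 and irg-5 were higher on preps 1 and 2, with means of 4.22 and 5.28, than on preps 3 and 4, whose titles carry the same date, with means of 2.86 for irg-4 and 4.69 for irg-5.

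The remaining p38 output, irg-6, stood apart from irg-4 and irg-5. Its log2 ratios were -0.48, -0.87, 0.51 and -0.67 on preps 1 to 4, with a mean of -0.38 ± 0.61 (SD, n = 4). Prep 3 was the only prep with a positive ratio, and without it the mean was -0.67 ± 0.19. On that prep 80.9% of genes had a lower ratio, against 13.5% to 23.8% on the other preps.

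The zip-2 dependent genes irg-1 and irg-2 were both below the reference on every prep. For irg-1 the log2 ratios were -1.74, -1.22, -1.27 and -1.25 on preps 1 to 4, a mean of -1.37 ± 0.25 (SD, n = 4), or 2.58-fold lower in adults. Preps 2, 3 and 4 lay close together and prep 1 was lower. For irg-2 the log2 ratios were -1.53, -1.0, -0.57 and -1.16, with a mean of -1.07 ± 0.40 (SD, n = 4), or 2.10-fold lower. Prep 1 was the lowest for both genes, and irg-1 was below irg-2 on all 4 preps, by 0.09 to 0.69.

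The ratios of irg-3, another gene named for induction by infection, split the preps. Preps 1 to 4 had log2 ratios of -2.42, 2.47, -1.64 and -2.37. On the linear scale adults had 0.187, 5.54, 0.320 and 0.193 times the reference, so prep 2 was the only prep above it. The mean of -0.99 ± 2.33 (SD, n = 4) describes no single prep. Without prep 2 the mean was -2.15 ± 0.43. Only 12 genes, irg-3 included, had an SD this large. On prep 2 irg-3 had a higher ratio than 99.4% of genes, and on the other preps than 0.916% to 2.24%.

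A gap of this size between prep 2 and the rest was rare. Prep 2 lay 4.11 above the next prep for irg-3, and over the genes with 4 values 3 genes had such a gap or a larger one. The other genes of these 3, named after their values were seen, were gadr-6, at 8.95 on prep 2 and between -0.38 and 0.05 elsewhere, and Y69E1A.1, at 1.92 on prep 2 and between -3.52 and -2.40 elsewhere. Prep 1 lay that far above the other preps for 6 genes and preps 3 and 4 for 0 genes. A positive ratio on prep 2 with negative ratios on the other preps was found in 516 genes (3.52%), against 510 genes (3.48%) for the same pattern on prep 1, 422 (2.88%) on prep 3 and 415 (2.83%) on prep 4. No other irg gene had that pattern on prep 2. With 1 probe for irg-3 and no signal intensities in the table, an effect of a single spot was not tested.

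**Figure D2:**
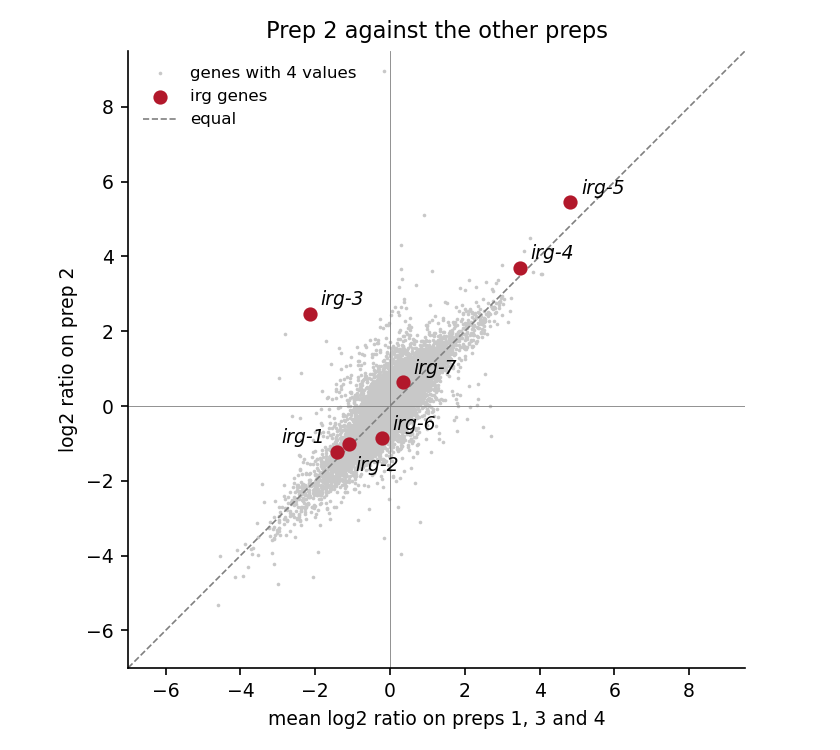
Log2 ratio on prep 2 (vertical axis) against the mean log2 ratio on preps 1, 3 and 4 (horizontal axis), adult over mixed reference, for the 14639 genes with 4 values (grey) and the irg genes (red); the dashed line marks equal values. The point of irg-3 lies at 2.47 on prep 2 against -2.15 on the others, while irg-5 and irg-4 lie near the line.

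The gene irg-7, which acts upstream of p38 and is needed for resistance to the pathogen, had log2 ratios of -0.42, 0.63, 0.27 and 1.22 on preps 1 to 4. Its mean was 0.43 ± 0.69 (SD, n = 4). Prep 1 was below the reference and prep 4 the highest, so the sign depended on the prep. Without prep 1 the mean was 0.71 ± 0.48, and without prep 4 it was 0.16 ± 0.53. Its SD exceeded that of 93.4% of genes, and that of irg-6 exceeded 90.2%.

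By mean log2 ratio the order was irg-5, irg-4, irg-7, irg-6, irg-3, irg-2 and irg-1. On each prep irg-5 was above irg-4, by 1.45 ± 0.75 on average (SD of the difference, n = 4), and irg-4 was above irg-7 by 3.11 ± 1.47. Between irg-7 and irg-6 the difference was 0.80 ± 1.05, between irg-6 and irg-3 0.62 ± 2.64, and between irg-3 and irg-2 0.08 ± 2.27, each smaller than its SD. The difference between irg-2 and irg-1 was 0.30 ± 0.27. These are differences in ratio against the reference, and say nothing of which gene had more RNA.

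**Figure D3:**
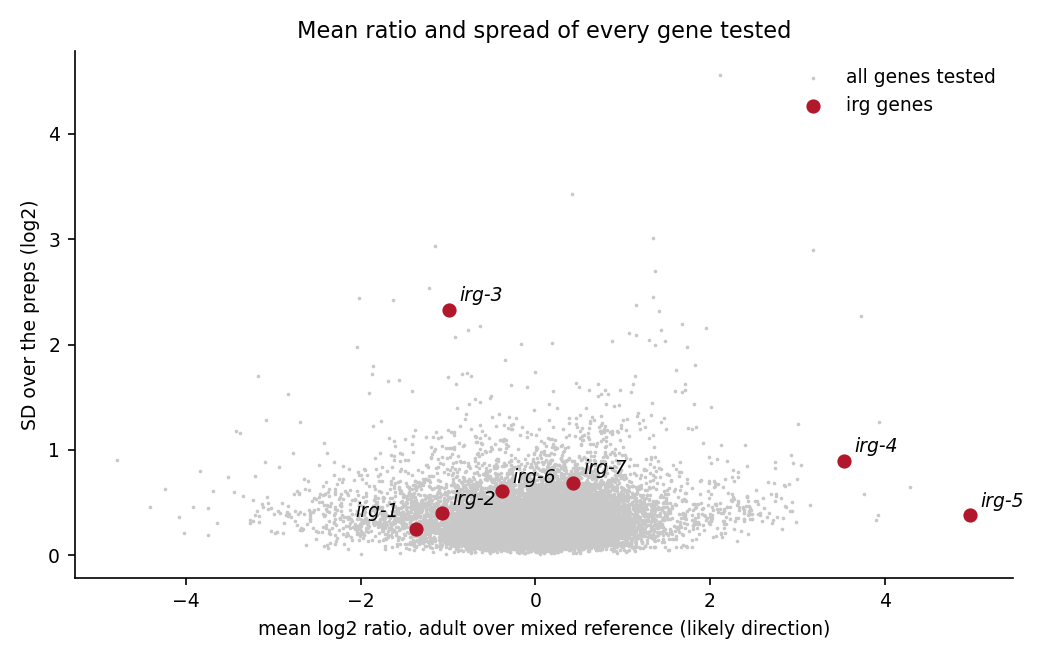
Mean log2 ratio of adult over mixed reference (horizontal axis, likely direction) and SD over the preps (vertical axis, log2) for all genes tested (grey) and the irg genes (red). The points show irg-5 at the right end with an SD of 0.38, irg-4 beside it at 3.54 with an SD of 0.90, and irg-3 among the genes with the largest spread.

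One further gene of this name, irg-8, is on the array and was not among the members; it is given after its values were seen. Its log2 ratios were 2.94, 2.69, 3.46 and 2.36 on preps 1 to 4, a mean of 2.86 ± 0.46 (SD, n = 4), given without a p-value as for the members. It was above the reference on every prep and its mean was matched or exceeded by 22 genes, itself included.

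Of the members, 4 lie on chromosome V (irg-1, irg-2, irg-3 and irg-5), 2 on chromosome IV (irg-4 and irg-6) and 1 on X (irg-7) in the RefSeq genes of WBcel235. No coordinates are given, because no genome build is named for the arrays. The next 2 protein-coding genes on either side of each member make 28 neighbours, of which 22 have a probe of their own. Of these, limma called 6 positive (27.3%, against 23.2% of all genes) and 5 negative (22.7%, against 21.2%) and did not call 11, which is near the shares over all genes.

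Beside irg-5, 3 of 4 neighbours were called positive, against 23.2% of all genes and 27.3% of all measured neighbours. With so few genes nothing is read from this count. Their means were below that of irg-5, as were those of all other genes. The gene dct-17 had log2 ratios of 1.11, 1.70, 1.33 and 1.66 on preps 1 to 4 (mean 1.45 ± 0.28, limma adjusted p = 2.6e-04). F35E12.6 and F35E12.10 both had a mean of 0.79 (SD 0.21 and 0.17, limma adjusted p = 0.0032 and 0.0028), and F35E12.9 had 0.35 ± 0.48 (adjusted p = 0.17). All of these means were positive, and F35E12.9 was below 0 on prep 4. Whether related sequences of this locus bind each other's probes was not tested.

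The other high member, irg-4, had no neighbour called positive. The cuticle collagen gene col-130 had -0.51 ± 0.39 (limma adjusted p = 0.044), a call that was lost without prep 1, 2 or 4 (adjusted p = 0.16, 0.071 and 0.12) and when preps 3 and 4 were treated as a block (adjusted p = 0.051), and the C-type lectin gene clec-185 had -0.13 ± 0.43 (adjusted p = 0.59). Its remaining neighbours, clec-184 and C25G4.17, have no probe of their own.

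Beside irg-6 the neighbours went both ways. C32H11.3 was negative on every prep, at -2.70 ± 0.59 (limma adjusted p = 7.7e-05), and K08D8.5 positive on every prep, at 0.73 ± 0.17 (adjusted p = 0.0039). K08D8.4 had 0.18 ± 0.24 (adjusted p = 0.37). Both K08D8.5 and K08D8.4 are among the pathogen-induced genes listed below. The chemoreceptor gene srz-15 had 2.04, 1.49, -0.04 and 0.18 on preps 1 to 4, high on preps 1 and 2 only (adjusted p = 0.052). It was called positive without prep 3 or prep 4 (adjusted p = 0.033 and 0.048) and when preps 3 and 4 were treated as a block (adjusted p = 0.044).

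Around irg-3, F53E10.5 was also highest on prep 2, with log2 ratios of -0.06, 1.43, -0.53 and -0.21 on preps 1 to 4. C29G2.6 had -0.93, 0.21, -0.56 and -0.79, again with its one positive value on prep 2. Neither was called (limma adjusted p = 0.69 and 0.066), and C29G2.6 was called negative without prep 2 (adjusted p = 0.014) and with the arrays centred or also scaled (adjusted p = 0.048 and 0.041). C29G2.3 had 0.03 on prep 2 and between -0.35 and 0.32 on the others, and F53E10.6 was positive on every prep at 1.08 ± 0.27 (adjusted p = 0.0010). Prep 2 was the highest prep for 2 of the 4 neighbours of irg-3. The share of all genes that were highest on prep 2 was not counted, so nothing is read from this.

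Of the genes beside irg-1, the chemoreceptor gene str-260 was called negative at -0.66 ± 0.31 (limma adjusted p = 0.011), a call lost without prep 2 (adjusted p = 0.054), and str-226, str-227 and T24A6.7 were not called. Beside irg-2, C49G7.10 had a ratio close to that of irg-2, at -1.23 ± 0.31 (adjusted p = 6.7e-04), and phat-7 was not called at 0.51 ± 0.53 (adjusted p = 0.077). Beside irg-7, hrg-11.2 was positive on every prep at 2.09 ± 0.68 (adjusted p = 3.9e-04) and rgl-1 negative at -0.55 ± 0.29 (adjusted p = 0.023), a call lost without prep 1 or prep 2 (adjusted p = 0.084 and 0.073).

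**Figure D4:**
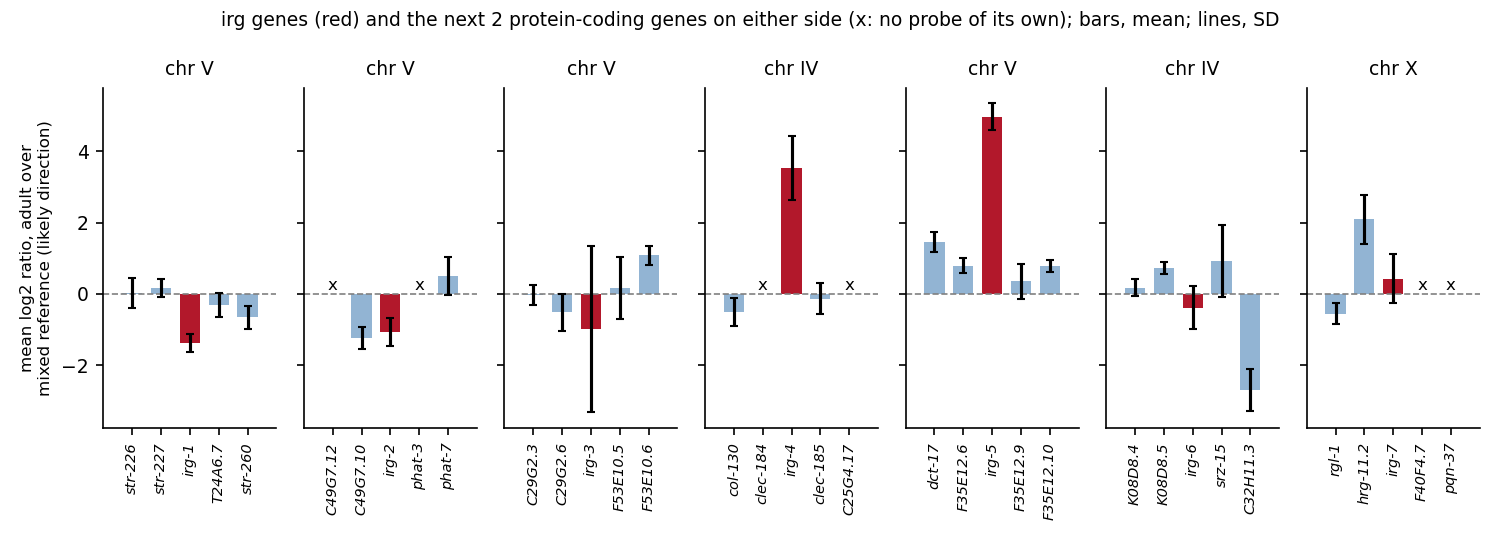
Mean log2 ratio of adult over mixed reference (vertical axis, likely direction; lines, SD over 4 preps) of each irg gene (red) and the next 2 protein-coding genes on either side (blue), in their order on the chromosome; x marks a gene with no probe of its own. The bar of irg-5 reaches 4.98 among neighbours between 0.35 and 1.45, and that of irg-4 reaches 3.54 beside neighbours at -0.51 and -0.13.

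Likeness of pattern was measured as the Euclidean distance between the 4 log2 ratios of 2 genes, over the 14639 genes with 4 values and leaving out the members themselves. The nearest genes to irg-5 were pud-2.1, at a distance of 1.71, the glucuronosyltransferase gene ugt-63 at 2.15 and pud-4 at 2.44, all on chromosome V and all below irg-5 in mean. For irg-4 they were ugt-8 at 1.35, ugt-22 at 1.42 and dod-21 at 1.48. The gene ugt-8 had 4.59, 3.38, 2.33 and 1.74 on preps 1 to 4, highest on prep 1 as irg-4 was. It was chosen for nearness on these same values, so this likeness is no separate result. Each of these distances is larger than those given below for irg-1, irg-2, irg-6 and irg-7. Few genes have means as high as irg-4 and irg-5, so the larger distances do not set their patterns apart.

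For irg-1 the nearest genes were the homeobox gene ceh-20 at 0.13, ncx-2 at 0.19 and the kinase gene mak-2 at 0.22, and for irg-2 they were acr-19 at 0.10, uig-1 at 0.20 and dur-1 at 0.21. For irg-6 they were dach-1 at 0.27, ZK945.8 at 0.33 and D2096.5 at 0.33, and for irg-7 panl-3 at 0.12, gon-4 at 0.22 and wrm-1 at 0.23. The nearest to irg-3 were ule-1 at 1.32, Y69E1A.1 at 1.54 and the aquaglyceroporin gene aqp-3 at 1.67. All 3 were positive on prep 2, at 1.74, 1.92 and 0.87, and at -1.57 or below on each of the other preps. They were chosen for nearness to irg-3 on these same values, so the shared pattern is no separate result.

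The wider infection response was described with lists of genes chosen by their roles, with earlier results of these data known. The shares called in these lists are therefore a description, and the lists share some genes. The regulators of the response had mostly negative ratios: of 19 measured, 11 were called negative (57.9%, against 21.2% of all genes) and 1 positive (5.26%, against 23.2%), with a median of -0.75 against 0.06 over all genes. Their list median was below 0 on every prep, at -1.13, -0.74, -0.56 and -0.27. In the p38 cascade, tir-1 had log2 ratios of -1.54, -0.44, -2.05 and -0.83 on preps 1 to 4 (mean -1.22 ± 0.72, limma adjusted p = 0.0057) and sek-1 had a mean of -0.78 ± 0.26 (adjusted p = 0.0043). The p38 gene pmk-1 had -1.13, -0.87, -1.02 and -0.73 (mean -0.94 ± 0.17, adjusted p = 0.0012). All 4 preps were thus below the reference for each of these genes.

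The kinase gene nsy-1 was not called at -0.48 ± 0.54 (limma adjusted p = 0.094), nor was atf-7, the transcription factor at the end of the cascade, at 0.15 ± 0.45 (adjusted p = 0.56). The lowest regulator was vhp-1, which encodes a phosphatase that restrains the kinases, at -1.55 ± 0.40 (adjusted p = 3.7e-04). The bZIP gene zip-2, on which irg-1 and irg-2 depend, had -1.13, -0.53, -1.17 and -0.16 on preps 1 to 4 (mean -0.75 ± 0.49, adjusted p = 0.016). It was below the reference on every prep and lost its call without prep 3 (adjusted p = 0.070). The genes irg-1 and irg-2 were also below the reference on every prep. Prep 3 was the lowest for zip-2, close to prep 1, and the highest for irg-2, at -0.57. For irg-1 prep 1 was the lowest, at -1.74, followed by prep 3 at -1.27, close to preps 2 and 4. Whether the ratios of zip-2, irg-1 and irg-2 go together over the preps was not tested. One sign on all 4 arrays was found in 58.1% of the genes with 4 values. The 1 regulator called positive, named after its values were seen, was atfs-1, of the mitochondrial stress response, at 0.52 ± 0.20 (adjusted p = 0.020), a call lost without prep 2 or prep 4 (adjusted p = 0.081 and 0.069). The regulator gene cebp-2 was not measured here.

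Other pathogen-induced genes also went both ways, with means between -3.03 and 2.05. Of 11 measured, 2 were called positive (18.2%, against 23.2% of all genes) and 5 negative (45.5%, against 21.2%), 4 had no call, and the median was -0.10. The lowest were the C-type lectin gene clec-60, at -3.03 ± 0.23 (limma adjusted p = 2.7e-05), and C17H12.8, at -2.42 ± 0.48 (adjusted p = 7.6e-05). The highest, named after its values were seen, was sysm-1, with 2.83, 2.15, 1.96 and 1.26 on preps 1 to 4 (mean 2.05 ± 0.64, adjusted p = 3.5e-04). It was above the reference on every prep and highest on prep 1.

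The families of antimicrobial peptides and lysozymes had 57 of 107 members measured, and the rest were not. Of those measured, 23 were called negative (40.4%, against 21.2% of all genes) and 7 positive (12.3%, against 23.2%), with a median of -0.40. The 2 lowest were the lysozyme gene lys-3, at -3.35 ± 0.57 (limma adjusted p = 3.8e-05), and the caenacin gene cnc-2, at -3.21 ± 0.75 (adjusted p = 7.7e-05). By family, the caenacins had 5 of 7 called negative, the thaumatin-like thn genes 3 of 3, the fip genes 2 of 3, the fipr genes 3 of 9 and the abf genes 1 of 3, with 0 positive in each. The saposin-like spp genes had 5 of 16 negative and 1 positive, the lys genes 1 of 10 negative and 4 positive, and the ilys genes 3 of 6 negative and 2 positive. The dod genes, named for acting downstream of the insulin pathway factor DAF-16, had 4 of 10 called positive and 3 negative, against 23.2% and 21.2% of all genes, and a median of 0.34. Of these dod-3 had -3.16 ± 0.32 (adjusted p = 2.7e-05) and dod-21, one of the genes nearest to irg-4 in pattern, had 3.85, 2.78, 2.77 and 2.23 (mean 2.91 ± 0.68, adjusted p = 8.6e-05).

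The irg genes irg-4, irg-5 and irg-6 are known from the intestine, so markers of that tissue were set beside them. Of 14 intestine markers measured, 8 were called positive (57.1%, against 23.2% of all genes) and 1 negative (7.14%, against 21.2%), 5 had no call, and the median was 0.99. The transporter gene pgp-1 had 1.80 ± 0.38 (limma adjusted p = 1.6e-04) and the ferritin gene ftn-1 had -3.23 ± 0.32 (adjusted p = 2.7e-05). The intestinal GATA factor gene elt-2 had -0.45, -0.44, -0.17 and -0.46 on preps 1 to 4 (adjusted p = 0.052), and was called negative once each array was centred on its median (adjusted p = 0.038). Marker means ranged from -3.23 to 1.80, all below the means of irg-4 and irg-5. For irg-5, the highest of all genes, this was fixed beforehand. The mean of irg-4 was matched or exceeded by only 8 genes, itself included, so nothing is read from this order. In such RNA a larger share of intestinal cells and more RNA per cell cannot be told apart, and the part of the tissue's share in the irg ratios was not tested.

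**Figure D5:**
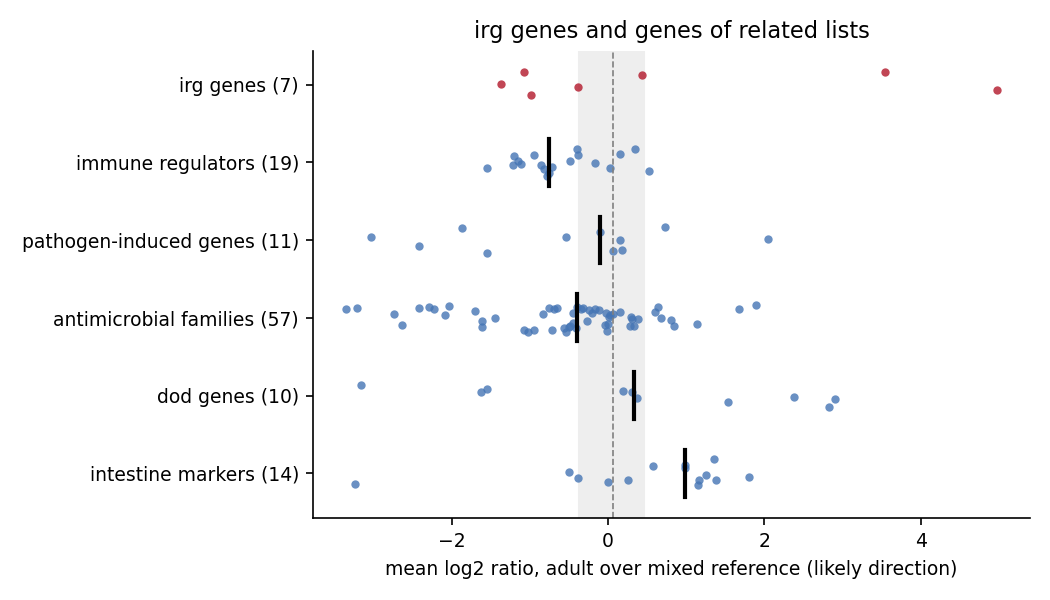
Mean log2 ratio of adult over mixed reference (horizontal axis, likely direction) of the irg genes (red) and of the measured members of 5 related lists (blue, number in brackets); black bars are list medians, the grey band runs between the lower and upper quartile of all genes and the dashed line their median of 0.06. The immune regulators centre on -0.75 and the intestine markers on 0.99. The points of irg-4 and irg-5 lie to the right of every list member, which for irg-5, the highest of all genes, was fixed beforehand.

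The arrays as a whole gave between 21243 and 21501 probe values each, and correlated with one another with Pearson's r between 0.659 and 0.755 over the probes, which are not independent replicates. Of markers chosen for the stage, the yolk receptor gene rme-2 had 1.35 ± 0.51 (limma adjusted p = 0.0013) and the larval matrix gene noah-1 had -2.69 ± 0.24 (adjusted p = 3.2e-05). The yolk protein genes vit-2, vit-5 and vit-6 were not called, at -0.27 ± 1.20, 0.03 ± 0.51 and 0.88 ± 1.16. Each yolk gene had its highest ratio in prep 4, at 1.49, 0.58 and 2.53. Elsewhere vit-2 lay from -1.19 to -0.61, vit-5 from -0.56 to 0.30 and vit-6 from -0.03 to 0.86. Prep 4 was also the highest for rme-2, at 1.94. Whether the preps differed in age was not tested.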

How the data were processed

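Each array has 1 deposited log2 ratio for a probe. The unit was taken from the values: 2 to the deposited value is a ratio with 3 decimals (within 0.00001) for at least 99.93% of the spots of each array. The sources used here do not name the scanner, dyes, background correction, normalization or numerator, nor whether the authors centred the arrays (medians -0.0043 to 0.0496). Signal intensities were not used here, so the depth near background is unknown, and precision is limited by the number of arrays.

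GEO's platform annotation named 1 gene for 16450 of 21632 probes, while 247 had several and 4935 had no symbol. Symbols were updated to the RefSeq genes of WBcel235 through the gene ID (16360 probes) or the accession (8 probes), and 82 stayed as annotated. Probes of a gene were averaged. The fit used limma 3.58.1 (R 4.3.3; intercept, lmFit, eBayes) on genes measured on 3 or more arrays, and was tested on simulated data. The labels do not say whether preps came from separate cultures, so p-values cover only the spread between these preps, which may be technical.

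The members and lists were chosen with earlier results of these data known. Named genes are all members, the 2 largest means in size of each list, 8 regulators chosen by role, chromosome neighbours and the 3 nearest genes by pattern; stage markers and genes marked as such in the text were added. A list of CUB-like genes could not be formed, because the tables used here hold no protein descriptions. The alternatives tried were centring, scaling, other array minimums, a robust prior, a block for the shared title date, probe medians, annotation symbols and leaving out each prep.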

Additional observations from a re-analysis of the deposited data

Results flagged for a closer look

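Of 28 sets of 4 values screened with Dixon's criterion for 1 prep far from the rest, 3 were picked out, where chance gives 1.4 at 1 in 20. The sets include the irg genes, whose ratios were known, and list medians beside genes of the same lists. The count is therefore a description and no test. The zip-2 dependent gene irg-1 had a log2 ratio of -1.74 on prep 1, against -1.27 to -1.22 on the other preps. For irg-3 prep 2 stood alone, with a log2 ratio of 2.47 against -2.42 to -1.64 on the other preps. The intestinal regulator elt-2 had -0.17 on prep 3, against -0.46 to -0.44 on the others. The cause was not tested for any of these.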

How the results depend on the processing

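Centring or scaling the arrays changed the sign of none of the 7 irg means. Leaving out 1 prep gave ranges of -1.42 to -1.25 for irg-1, -1.23 to -0.91 for irg-2, -2.15 to -0.52 for irg-3, 3.14 to 3.80 for irg-4, 4.83 to 5.12 for irg-5, -0.67 to -0.21 for irg-6 and 0.16 to 0.71 for irg-7. A mean of 4 values cannot move by its whole SD when 1 is left out, so these ranges are no test of stability. For irg-3 the mean was -2.01 on the preps that share a title date and 0.03 on the other two. The counts of irg genes called became 3 positive without prep 1 and 3 negative without prep 2 or prep 3, which follows from leaving out the prep with the opposite sign for irg-7, irg-3 or irg-6. Of the counts, the genes called positive and negative fell to 929 and 1203 when a mean of log2 1 in size was also asked for, which takes a subset by construction, and lay between 2523 and 3049 and between 2459 and 2747 without 1 prep. Centring turned their majority, with 3114 positive and 3405 negative, as did scaling, with 3155 and 3420. The immune regulators called positive numbered 0 to 1 without 1 prep, and the intestine markers called negative numbered 2, elt-2 being added, when the arrays were centred or also scaled. The planned duplicateCorrelation gives no estimate for 3 blocks on 4 arrays, so the title date entered with a correlation of 0.153 pooled over all genes. No paired analysis was possible because the 4 arrays form 1 group.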
